A study of Homo sapiens with 4 samples.

Results

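The mitochondrial ribosomal protein (MRP) genes encode the protein part of the ribosome inside mitochondria. They were taken here as all genes on the array whose symbol starts with MRPL or MRPS followed by a digit and that had a value on all 4 arrays. The array held 79 such symbols, of which 77 had a value on every array, among 13446 genes measured on all 4. MRPL20-AS1, an antisense RNA, and MRPL42P5, a pseudogene, matched the pattern but encode no ribosomal protein, which left 75 protein-coding genes for the descriptions that follow. MRPL16 and MRPL39 had no value on the untreated RC-K8-R array and were not among the 77. Of the 75 genes, 47 are MRPL and 28 are MRPS. MRPS30 and MRPS18A carry an S in their name, but structures of the mammalian mitoribosome place them in the large subunit, which gives 49 and 26 genes by place.

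The mitochondrial ribosome is built from RNA encoded in mitochondrial DNA and from proteins that are encoded in the nucleus, made in the cytosol and imported. It makes the few proteins encoded in mitochondrial DNA, which are core subunits of the respiratory chain and of ATP synthase. Its small subunit binds the messenger RNA and reads the codons, and its large subunit joins the amino acids. Many of its proteins have counterparts in the bacterial ribosome, and others are found only in mitochondria. The genes carry the symbols MRPS and MRPL for proteins first assigned to the small and the large subunit.

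The study compared an established human B-cell lymphoma line, RC-K8 (the diffuse large cell type), with RC-K8-R, which was derived from it by 10 weeks of culture with increasing interleukin-21 (IL-21). The title of the study links IL-21 to higher MYC and to apoptosis of such lymphomas. Each line was grown in the same medium without IL-21 or for 6 h with 100 ng/mL of it, which made 4 groups with 1 array each. Total RNA was labelled with Cy5 and set against a human reference RNA labelled with Cy3. The labels do not say whether RC-K8-R is 1 clone. Because no group was replicated, no comparison was tested and no p-value is given, and each value below is a difference between single arrays. The error given for genes with several probes is the SD between their probes, which does not cover the spread between cultures.

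Values are log ratios of sample over reference, read as log2 and centred on each array's median. Which log base was used is not stated. If it were the natural logarithm, folds would be larger than those given and directions the same. A level is given as this centred log2 ratio, so that a level of 0 equals the array's median and levels of different genes are not compared. A log2 difference of 1 is 2-fold and one of 0.58 is 1.5-fold. The arrays held 25246 to 26555 values, and the SD of the deposited log ratios was 1.26 and 1.31 for RC-K8 and, more widely spread, 1.52 and 1.56 for RC-K8-R. Marker lists were used only to check the cell type, and their levels depend on the reference RNA as well. Of 9 B cell markers, 7 were measured, 5 of them above 0 and 1 below 0 on all 4 arrays. Their medians were 0.95 to 2.13 on the 4 arrays. Medians were -6.09 to -6.91 for hepatocyte and -3.50 to -4.97 for epithelial markers. Myeloid markers, with 3 of 5 measured, lay nearer the array median, with medians from -0.73 to 0.48.

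The promoters of 5 MRP genes are shown because they belong to the gene with the largest difference after IL-21 in RC-K8 (MRPS23), the 3 genes with the largest difference that hold CACGTG (MRPL36, MRPL37 and MRPL45), and the gene with the lowest difference (MRPL44). CACGTG is the E-box, the canonical site of the growth-promoting factor MYC and its partner MAX, which other factors also bind. CCGGAAG is a core site of ETS factors, which include GABPA, a known activator of nuclear genes for mitochondrial proteins. Each sequence holds the 250 bases before the gene start, from RefSeq on GRCh38.p14, written 5′ to 3′ on the gene's strand. Capitals mark CACGTG, and CCGGAAG in either orientation.
MRPS23 (chr17:57850045-57850294, minus strand): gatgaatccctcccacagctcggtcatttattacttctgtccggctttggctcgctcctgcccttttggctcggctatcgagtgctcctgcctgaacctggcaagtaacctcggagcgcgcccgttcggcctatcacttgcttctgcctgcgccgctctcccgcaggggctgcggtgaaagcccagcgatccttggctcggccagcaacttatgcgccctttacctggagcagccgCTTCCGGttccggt
MRPL36 (chr5:1799838-1800087, minus strand): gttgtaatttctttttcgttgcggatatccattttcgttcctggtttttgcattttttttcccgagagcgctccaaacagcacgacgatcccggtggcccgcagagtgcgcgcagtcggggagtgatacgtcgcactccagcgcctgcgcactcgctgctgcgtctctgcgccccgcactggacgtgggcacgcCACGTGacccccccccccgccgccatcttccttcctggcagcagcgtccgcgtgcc
MRPL37 (chr1:54199917-54200166, plus strand): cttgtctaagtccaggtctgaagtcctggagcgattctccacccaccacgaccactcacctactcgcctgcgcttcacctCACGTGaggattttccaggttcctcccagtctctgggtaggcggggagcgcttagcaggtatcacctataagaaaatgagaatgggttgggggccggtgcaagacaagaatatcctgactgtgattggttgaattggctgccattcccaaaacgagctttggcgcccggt
MRPL45 (chr17:38296918-38297167, plus strand): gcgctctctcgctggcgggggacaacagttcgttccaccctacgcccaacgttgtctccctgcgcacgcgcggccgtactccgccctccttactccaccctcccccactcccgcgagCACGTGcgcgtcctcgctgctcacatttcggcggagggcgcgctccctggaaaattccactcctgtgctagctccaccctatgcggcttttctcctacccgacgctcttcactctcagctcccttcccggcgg
MRPL44 (chr2:223957213-223957462, plus strand): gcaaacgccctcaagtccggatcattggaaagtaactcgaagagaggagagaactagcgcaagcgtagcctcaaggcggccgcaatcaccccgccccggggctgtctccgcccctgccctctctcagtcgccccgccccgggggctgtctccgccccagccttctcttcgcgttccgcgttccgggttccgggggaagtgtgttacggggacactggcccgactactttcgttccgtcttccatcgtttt

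Promoters of 67 of the 75 genes were found in the RefSeq table, and 27305 promoters in all were searched in the same 250-base window on both strands. The full set was not limited to protein-coding genes or to genes measured on the arrays, as the 67 were. CACGTG was present in 6 of the 67 (8.96%), against 6.49% of all promoters. CCGGAAG was present in 23 (34.3%), against 8.82% of all. GCATGCG, a core of the NRF1 site, was in 7 (10.4%, against 3.57%), and AAGATGG, a core of the YY1 site, was in 7 (10.4%, against 3.77%). No 2 of these motifs overlapped in a promoter of an MRP gene. The GC content was 60.8% at the median of the 67 promoters and 58% over all of them. MRPS23 holds CCGGAAG with its first base 14 bases before the gene start, and MRPL44 holds none of the 4 motifs.

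The first comparison asked how the MRP genes of RC-K8, the parental line, differed after 6 h of IL-21. Most MRP genes were higher by a small amount: 65 of 75 had a difference above 0, against 45.1% of all genes, 9 were below 0, against 54.7%, and 1, MRPS14, was at exactly 0. The median log2 difference was 0.22, against -0.04 for all genes. The quartiles of the MRP genes were 0.11 and 0.40, and the whole range was -0.20 to 0.88. No member reached 2-fold in either direction, where 1.44% of all genes were 2-fold higher and 1.67% 2-fold lower. At 1.5-fold, 7 members were higher and none lower, against 5.82% and 5.93% of all genes. Median differences of every marker list were below 0 in the same pair of arrays. They were -0.75 for B cell, -0.40 for T and NK cell and -0.37 for fibroblast markers. Myeloid markers were at -0.27, epithelial at -0.21 and hepatocyte at -0.19. The median level of the B cell markers went the other way, from 0.95 untreated to 1.37 with IL-21. The part of these markers in the MRP values was not tested. In RNA from whole cultures, more RNA per cell and more cells that carry it cannot be told apart.

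Probes of the same gene were also compared with each other. Of the 24 members with 2 or more probes, 17 had all probes above 0, 2 had all below 0, and 5 had probes of both signs. No share over all genes with several probes is given beside these counts, so they are not read as particular to the MRP genes. The median log2 difference of these 24 members was 0.16. The median SD between probes was 0.07 for them and 0.16 over all genes with several probes. Among the 51 members with a single probe no such check exists.

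The 7 members at 1.5-fold higher came from both subunits. MRPS23, a small-subunit protein found only in mitochondria, had levels of 0.00 untreated and 0.88 with IL-21 in RC-K8, and of -0.05 and -0.15 in RC-K8-R. MRPL12, which forms the flexible stalk that recruits translation factors, had levels of -1.41 and -0.56 in RC-K8 and of -0.88 and -0.89 in RC-K8-R. MRPS12, the counterpart of bacterial S12 at the decoding site, had levels of -0.43 and 0.26 in RC-K8 and of -0.25 and -0.19 in RC-K8-R. In each of these 3 the treated RC-K8 array was the highest of the 4, and the untreated and treated RC-K8-R arrays lay close together. The fold differences in RC-K8 were 1.84 for MRPS23, 1.79 for MRPL12 and 1.61 for MRPS12, the last from 2 probes with an SD of 0.01 on the log2 scale.

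The other 4 were likewise highest on the treated RC-K8 array. MRPL17, the counterpart of bacterial L17, had levels of -1.90 and -1.23 in RC-K8 and of -1.85 on both RC-K8-R arrays. MRPL36, a small large-subunit protein with a bacterial counterpart, had levels of -0.47 and 0.19 in the former line and of -0.13 and -0.01 in the latter. MRPS26, found only in mitochondria, had levels of -0.76 and -0.11, then of -0.56 and -0.57. MRPS2, the counterpart of bacterial S2, was at 0.06 and 0.69 in RC-K8 and at 0.30 on both RC-K8-R arrays. Their log2 differences in RC-K8 were 0.67, 0.66, 0.65 and 0.64, each from 1 probe, so that no spread is known for them. For all 7, the untreated RC-K8 level was below or, for MRPS23, within 0.05 of the untreated RC-K8-R level.

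**Figure D1:**
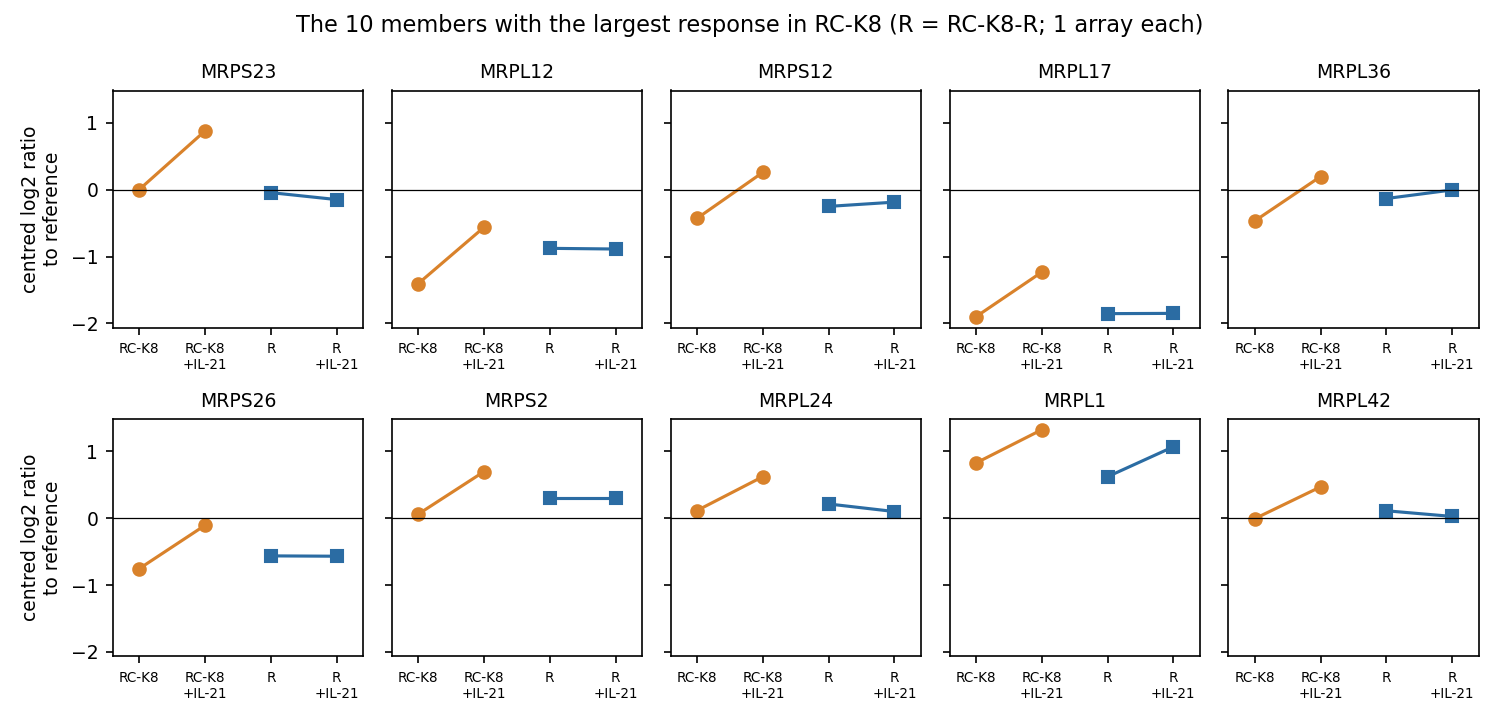
Centred log2 ratio to the reference (y axis) on each of the 4 arrays (x axis) for the 10 MRP genes with the largest log2 difference after IL-21 in RC-K8. Orange circles are RC-K8, blue squares RC-K8-R, and a line joins the untreated and the treated array of a line. All 10 are higher on the treated RC-K8 array, whereas in RC-K8-R the differences lie between -0.11 and 0.13 except for MRPL1, at 0.45.

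Next in order were MRPL24, the counterpart of L24 near the exit of the peptide tunnel (0.51), MRPL1, a part of the L1 stalk (0.50), and MRPL42, found only in mitochondria (0.48, SD between 2 probes 0.11). The MRPL42 probes may share sequence with the pseudogene MRPL42P5, so that value is uncertain. MRPL3, a core protein of the large subunit, had 2 probes with differences of 0.48 and 0.47. The 9 members below 0 reached at most -0.20. MRPL44, which has an RNase III-like fold, had levels of 0.52 untreated and 0.32 with IL-21 in RC-K8 and of 0.21 on both RC-K8-R arrays. MRPS18B, a relative of bacterial S18, was at -0.16, the tunnel protein MRPL22 at -0.14 and the small-subunit protein MRPS33 at -0.13.

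The other 5 members below 0 had several probes each. MRPS6, the counterpart of S6, was at -0.10 (SD 0.06), and of the proteins found only in mitochondria MRPL43 was at -0.08 (SD 0.01 over 3 probes) and MRPL49 at -0.07 (SD 0.12 over 3 probes). MRPL10, which anchors the stalk formed by MRPL12, was at -0.10 from probes at -0.31 and 0.10, which leaves its direction undecided. MRPL53 was at -0.01 (SD 0.14). MRPL11, at the base of the stalk, was at 0.21 on 1 probe. The 3 proteins of the stalk region thus had differences of 0.84, 0.21 and -0.10 in RC-K8.

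**Figure D2:**
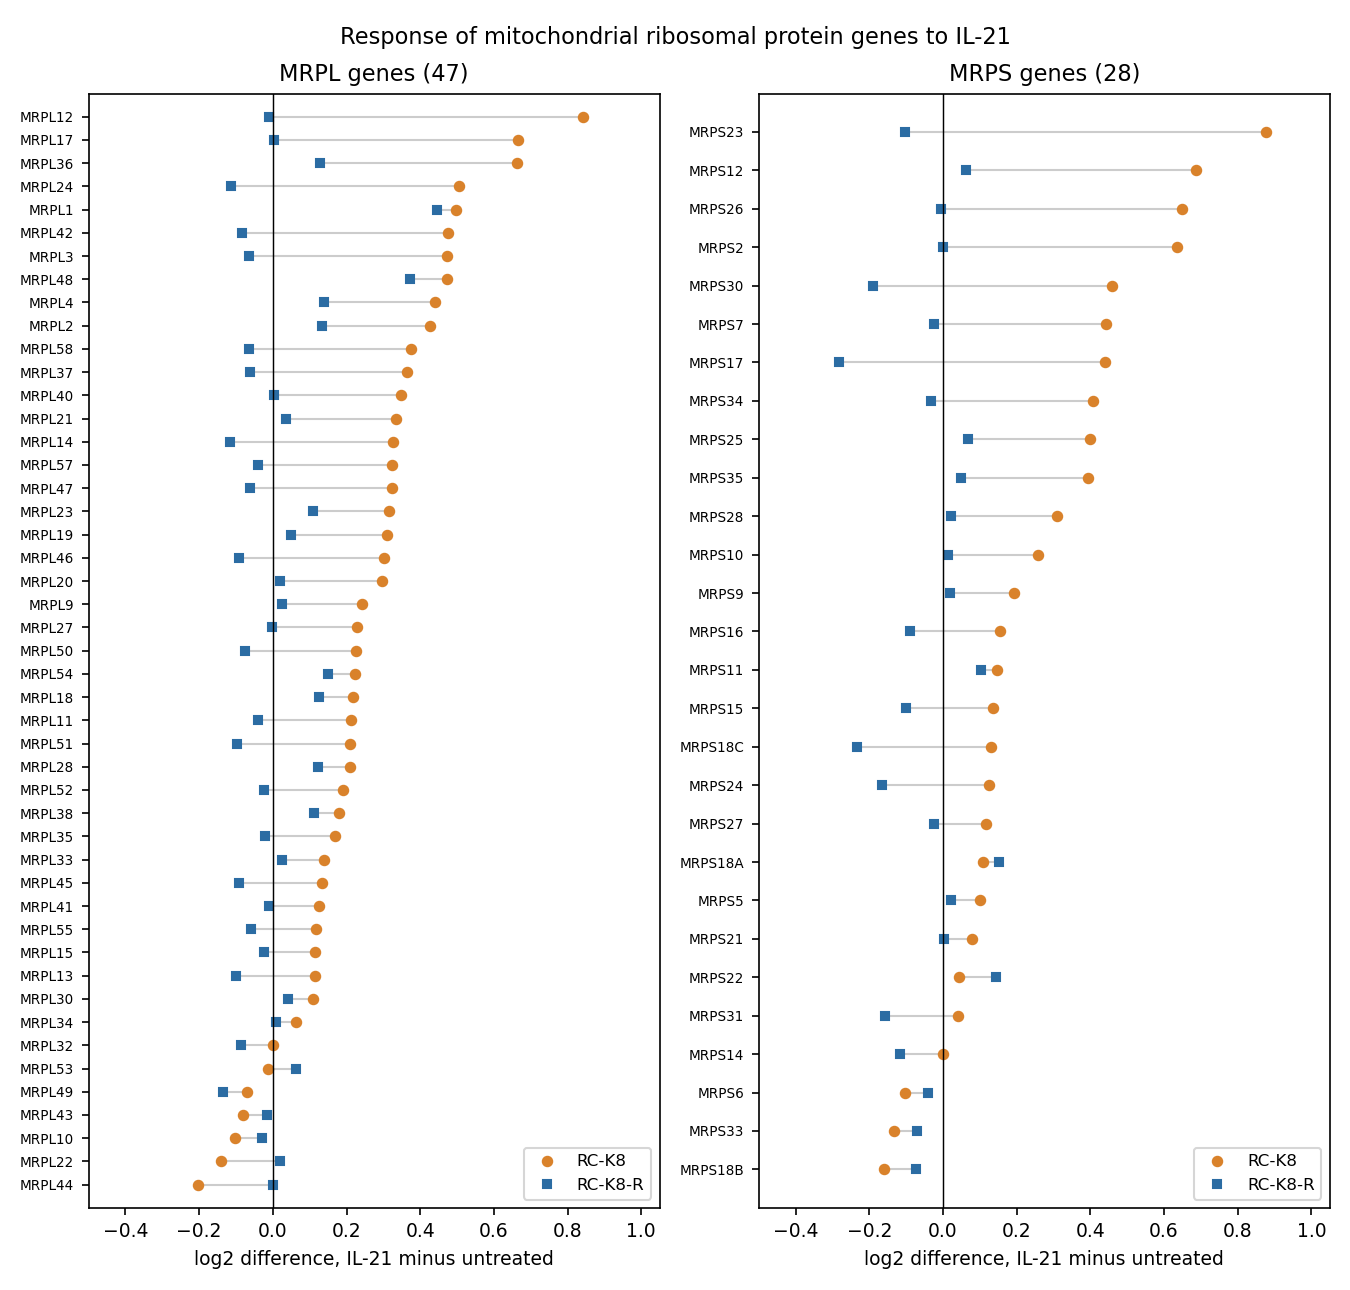
Log2 difference between the IL-21 and the untreated array (x axis) for each of the 75 MRP genes (y axis), MRPL genes on the left and MRPS genes on the right, ordered by the difference in RC-K8. Orange circles are RC-K8 and blue squares RC-K8-R. In RC-K8, 65 of 75 genes lie above 0, and in RC-K8-R the points gather around 0 with a median of -0.01.

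Values of the large and the small subunit overlapped. In RC-K8 with IL-21 the 47 MRPL genes had a median log2 difference of 0.23 with 41 above 0, and the 28 MRPS genes had 0.15 with 24 above 0. The quartiles overlapped widely, at 0.12 to 0.36 for MRPL and 0.10 to 0.42 for MRPS. At 1.5-fold higher were 3 MRPL and 4 MRPS genes. Grouping by place in structures, with MRPS30 (0.46) and MRPS18A (0.11) counted as large, left medians of 0.23 and 0.15. Members are not replicates, and the difference between the subunits was not tested.

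The 45 members with a bacterial counterpart and the 28 found only in mitochondria had the same median, 0.22, with MRPS18A and MRPS18B in neither group. Of the former 41 were above 0, and of the latter 23. The small-subunit proteins found only in mitochondria had the highest median of the smaller groups, 0.39, over 9 genes that ranged from -0.13 to 0.88. Members whose promoter holds CACGTG had a median of 0.13 over 6 genes (-0.14 to 0.66), and the 61 without had 0.22 (-0.20 to 0.88). With and without CCGGAAG, the medians were both 0.22.

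The second comparison put the same question to RC-K8-R. There the MRP genes lay around 0: the median log2 difference was -0.01, against 0.00 for all genes, and 33 of 75 members were above 0, against 50.9% of all genes. No member reached 1.5-fold in either direction, where 1.20% of all genes were 1.5-fold higher and 2.08% lower, and none reached 2-fold, against 0.342% and 0.602%. The quartiles were -0.07 and 0.04, and 41 members were below 0, against 48.9% of all genes. MRPL medians (-0.01) and MRPS medians (-0.02) were alike.

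A pair of members stood apart from the others in RC-K8-R. MRPL1 had levels of 0.62 untreated and 1.06 with IL-21, a difference of 0.45 that was close to its 0.50 in RC-K8. MRPL48, a large-subunit protein found only in mitochondria, had levels of -0.14 and 0.33 in RC-K8 and of 0.13 and 0.50 in RC-K8-R, with a difference of 0.47 in the first line and 0.37 in the second. Each was higher with IL-21 in both lines, on a single probe. After these came MRPS18A (0.15), a relative of MRPS18C, and MRPL54 (0.15) and MRPS22 (0.14), which are found only in mitochondria. At the low end were MRPS17, the counterpart of S17 (-0.28), MRPS18C, the counterpart of S18 (-0.23), MRPS30 (-0.19), MRPS24 (-0.16) and MRPS31 (-0.16), all with an S in their name and each with 1 probe.

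The IL-21 comparisons of the 2 lines have no array in common. Over the 75 members, 30 were above 0 in both lines, against 23.5% of all genes, and 34 were above 0 in RC-K8 and below 0 in RC-K8-R, against 21.6%. The reverse held for 3, against 27.4%, and 6 were below 0 in both, against 27.2%, while MRPS14 and MRPS2 were at exactly 0 in 1 line. Pearson's r across members was 0.15 and Spearman's rho 0.13, where r across all genes was 0.03, given as a description over genes that share the same 4 arrays. The response of RC-K8-R was below that of RC-K8 for 65 of 75 members and above it for 10, where 47.7% of all genes were below and 52.2% above. The median difference of responses was -0.23, against 0.02 for all genes. At 1.5-fold, 9 members were negative and none positive, against 8.13% and 8.10% of all genes. None reached 2-fold, against 2.31% and 2.47%.

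The most negative differences of responses, which contain the RC-K8 response itself, were those of MRPS23 (-0.98), MRPL12 (-0.85), MRPS17 (-0.72), MRPL17 (-0.66) and MRPS26 (-0.65). The largest positive ones were smaller, with MRPL44 at 0.20, MRPL22 at 0.16, MRPS22 at 0.10, MRPS18B at 0.09 and MRPL43 at 0.08. Of the 24 members with several probes, 16 had every probe negative, none had every probe positive, and 8 had both signs. No share over all genes is given beside these counts, so nothing particular to the MRP genes is read from them. The median SD between probes was 0.12 for these members and 0.20 over all genes with several probes. MRPL and MRPS medians were -0.22 and -0.27.

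**Figure D3:**
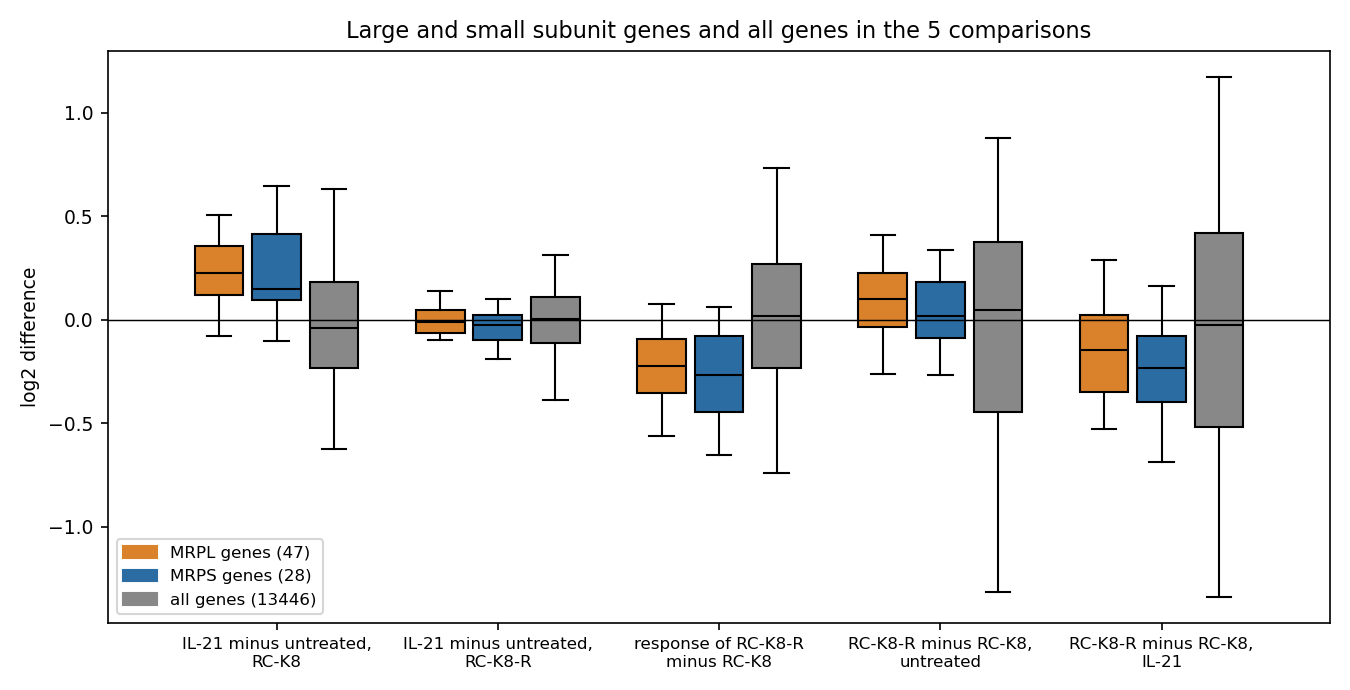
Log2 difference (y axis) in the 5 comparisons (x axis) for MRPL genes (orange), MRPS genes (blue) and all 13446 genes (grey). Boxes span the quartiles with the median as a line, and whiskers reach the 5th and 95th percentiles. The MRP boxes lie above 0 for IL-21 in RC-K8 and near 0 for IL-21 in RC-K8-R, and are narrower than those of all genes where the lines are compared.

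The third question was whether RC-K8-R differed from RC-K8 before treatment. MRP genes were close in both lines: the median log2 difference of RC-K8-R over RC-K8 was 0.08, against 0.05 for all genes. Above 0 lay 47 of 75 members, against 53.4% of all genes, and after a loess correction on the mean log ratio the split was 38 above and 37 below. At 1.5-fold, 1 member was higher and 1 lower, whereas 13.6% of all genes were higher and 20.6% lower, and no member was at 2-fold, against 3.35% and 10.2%. The SD between members was 0.23, against 0.68 between all genes. T and NK cell markers (median -1.63, with 4 of 6 measured) and myeloid markers (median level 0.48 in RC-K8, -0.65 in RC-K8-R) were lower in RC-K8-R, while B cell markers were higher (0.78), and their part in the MRP values was not tested.

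MRPL15, the counterpart of bacterial L15, was the member lower at 1.5-fold. Its levels were 1.11 untreated and 1.23 with IL-21 in RC-K8, and 0.39 and 0.36 for RC-K8-R, so that both RC-K8-R arrays lay below both RC-K8 arrays. MRPL23, the counterpart of L23 at the tunnel exit, was the member higher at 1.5-fold. Its levels were -0.13 and 0.19 for RC-K8, and 0.47 and 0.58 for RC-K8-R, so that the RC-K8-R arrays were the higher pair. MRPL15 differed by -0.72 and MRPL23 by 0.60 between the untreated lines. MRPL12 (0.53), MRPL30 (0.44, SD between 3 probes 0.18), MRPL54 (0.41) and MRPL28 (0.38) followed at the high end, all with a bacterial counterpart except MRPL54. MRPS33 (-0.35), MRPS18B (-0.32), MRPL44 (-0.31) and MRPL18 (-0.29) followed at the low end.

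Of the 24 members with several probes, 12 had probes of both signs between the untreated lines, with a median SD between probes of 0.17. The same count was 8, with a median SD of 0.09, between the lines with IL-21, and 11, with 0.06, for IL-21 in RC-K8-R. Over all genes with several probes these median SDs were larger, at 0.31, 0.31 and 0.12. No share over all genes is given beside the counts, and they are not read as a trait of the MRP genes. MRPL43 had probes at -0.49, 0.08 and 0.46. The probe at 0.46 is annotated to another transcript of the gene than the other 2, and its level went from 0.45 in RC-K8 to 0.91 in RC-K8-R. MRPS10 (-0.17, -0.09 and 0.75) and MRPL49 (-0.15, 0.01 and 0.69) each had 1 of 3 probes that stood above the others. MRPL35 (-0.38 and 0.21) and MRPL45 (-0.00 and 0.53) had 2 probes of different sign. No direction between the lines is read for these 5 genes.

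With IL-21, RC-K8-R was lower than RC-K8 for most MRP genes. The median log2 difference was -0.20, against -0.03 for all genes, and 58 of 75 members were below 0, against 51.5% of all genes. At 1.5-fold, 6 members were lower and none higher, where 22.6% of all genes were lower and 18.0% higher. MRPS23 was the single member at 2-fold lower (-1.03), against 10.3% of all genes, and none was 2-fold higher, against 7.47%. The other 5 were MRPS17 (-0.96), MRPL15 (-0.86), MRPL3 (-0.72, SD between 2 probes 0.29), MRPS34, found only in mitochondria (-0.69), and MRPL17 (-0.62). MRPL23 (0.40), MRPL54 (0.34), MRPL10 (0.31, SD 0.08), MRPS11, the counterpart of S11 (0.30), and MRPL28 (0.29) were the highest. The MRPL median was -0.14 and the MRPS median -0.23, with 13 of 47 and 4 of 28 above 0. In the same pair of arrays the median difference was 1.96 for B cell markers and below 0 for every other marker list. It was -1.35 for T and NK cell, -0.78 for myeloid, -1.69 for fibroblast, -0.80 for epithelial and -0.57 for hepatocyte markers. The part of these markers in the MRP values was not tested.

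The comparisons of the lines without and with IL-21 share no array with each other, but each shares its arrays with the IL-21 comparisons. Of the 75 members, 30 were higher in RC-K8-R untreated and lower with IL-21, against 12.1% of all genes, and none went the other way, against 7.19%. A further 28 were lower in RC-K8-R both times, against 39.4%, and 17 higher both times, against 41.3%. Pearson's r between the line differences was 0.61 across members and 0.78 across all genes. Of all 4 arrays, the treated RC-K8 array was the highest for 51 of 75 members, where it was the highest for 24.7% of all genes. The lowest was the untreated RC-K8 array for 38 members (27.1% of all genes) and the treated RC-K8-R array for 23 (27.6%).

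**Figure D4:**
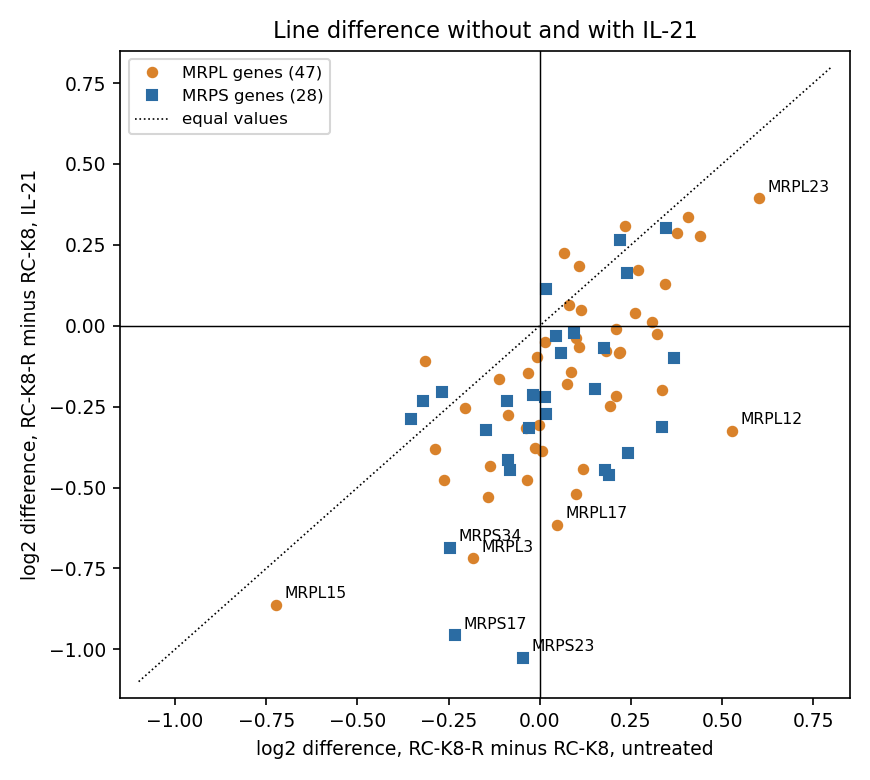
Log2 difference between RC-K8-R and RC-K8 without IL-21 (x axis) and with IL-21 (y axis) for the 75 MRP genes, MRPL as orange circles and MRPS as blue squares. The dotted line marks equal values. Most points lie below it, MRPS23 being the farthest at -0.05 and -1.03, while MRPL15 lies near it.

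Other genes of the mitochondrial expression system were read from lists named after their function. DAP3, PTCD3, CHCHD1 and GADD45GIP1 encode mitoribosomal proteins under other names. In the same order they were at 0.19, 0.43, 0.20 and 0.44 in RC-K8, all above 0, against 45.1% of all genes. In RC-K8-R they were at 0.16, 0.04, -0.06 and -0.03. Of 25 assembly and ribosomal RNA modification factors, all measured, 16 (64%) were above 0 in RC-K8, against 45.1% of all genes. Their median was 0.18. At 1.5-fold, 4 (16%) were higher and none lower, against 5.82% and 5.93% of all genes. RBFA, which acts in small-subunit maturation, was the highest at 0.86 (levels 0.27 and 1.13), and was at -0.31 in RC-K8-R. MPV17L2 was the lowest at -0.46. The difference of responses for RBFA, -1.16, was the only one of this list at 2-fold, where 2.31% of all genes were 2-fold lower.

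Values of the mitochondrial translation factors were similar. Of 16 translation factors, 14 were measured, with a median of 0.33 in RC-K8. Of these, 10 (71.4%) were above 0 and 3 (21.4%) 1.5-fold higher, against 45.1% and 5.82% of all genes. The elongation factor GFM1 was the highest at 0.75 (levels 0.63 and 1.37) and was at -0.10 in RC-K8-R. The release factor MTRF1L was at -0.17 from probes at -0.35 and 0.01, and the inner-membrane insertase OXA1L also at -0.17. In RC-K8-R the median of the list was -0.00, with 7 (50%) above 0, against 50.9% of all genes. No member of the list was at 2-fold in any comparison.

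The list of mitochondrial DNA maintenance, transcription and RNA processing held TWNK, the gene of these 4 lists with the largest difference in RC-K8. Of its 21 genes 20 were measured, with a median of 0.35 in RC-K8. Of these, 18 (90%) were above 0 and 5 (25%) 1.5-fold higher, against 45.1% and 5.82% of all genes. TWNK, the helicase of mitochondrial DNA replication, had levels of -0.10 and 1.34 in RC-K8 and of 0.11 and 0.18 in RC-K8-R. Its difference in RC-K8 was 1.43 (SD between 2 probes 0.12). It was the only gene of these 4 lists at 2-fold there, where 1.44% of all genes were 2-fold higher. GRSF1, an RNA-binding protein of mitochondrial RNA granules, was the lowest at -0.21. In RC-K8-R the median of the list was -0.03, with 7 (35%) above 0, against 50.9% of all genes. With IL-21, TWNK (-1.16), the transcription factor TFB2M (-1.16) and the RNA helicase SUPV3L1 (-1.06) were 2-fold lower in RC-K8-R than in RC-K8, 3 of 20 against 10.3% of all genes. The difference of responses was at 2-fold for TWNK (-1.36) and FASTKD3 (-1.05), which acts on mitochondrial messenger RNA. These were 10% of the list, where 2.31% of all genes were 2-fold lower.

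Regulators of nuclear genes for mitochondrial proteins were measured for 6 of 9 listed genes. MYC was at 3.02 in RC-K8 as the median of 3 probes, which ranged from -0.08 to 3.74. In RC-K8-R it was at 0.07. Its levels, as medians over the probes, were -0.65 on the untreated and 1.38 on the treated RC-K8 array, less far apart than the median probe difference, and -1.11 and -1.16 on the RC-K8-R arrays. MYC encodes a transcription factor that activates genes of ribosome and mitochondrial biogenesis. PPRC1, a coactivator of the PGC-1 family, had levels of -0.25 and 0.68 in RC-K8 and of -0.31 and -0.32 in RC-K8-R, with differences of 0.92 and -0.01. PPARGC1B was at 0.46, ESRRA at 0.30, GABPB1 at 0.29 and YY1 at -0.20 in RC-K8. All 6 were between -0.13 and 0.07 in RC-K8-R. MYC was the only one at 2-fold in any comparison.

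**Figure D5:**
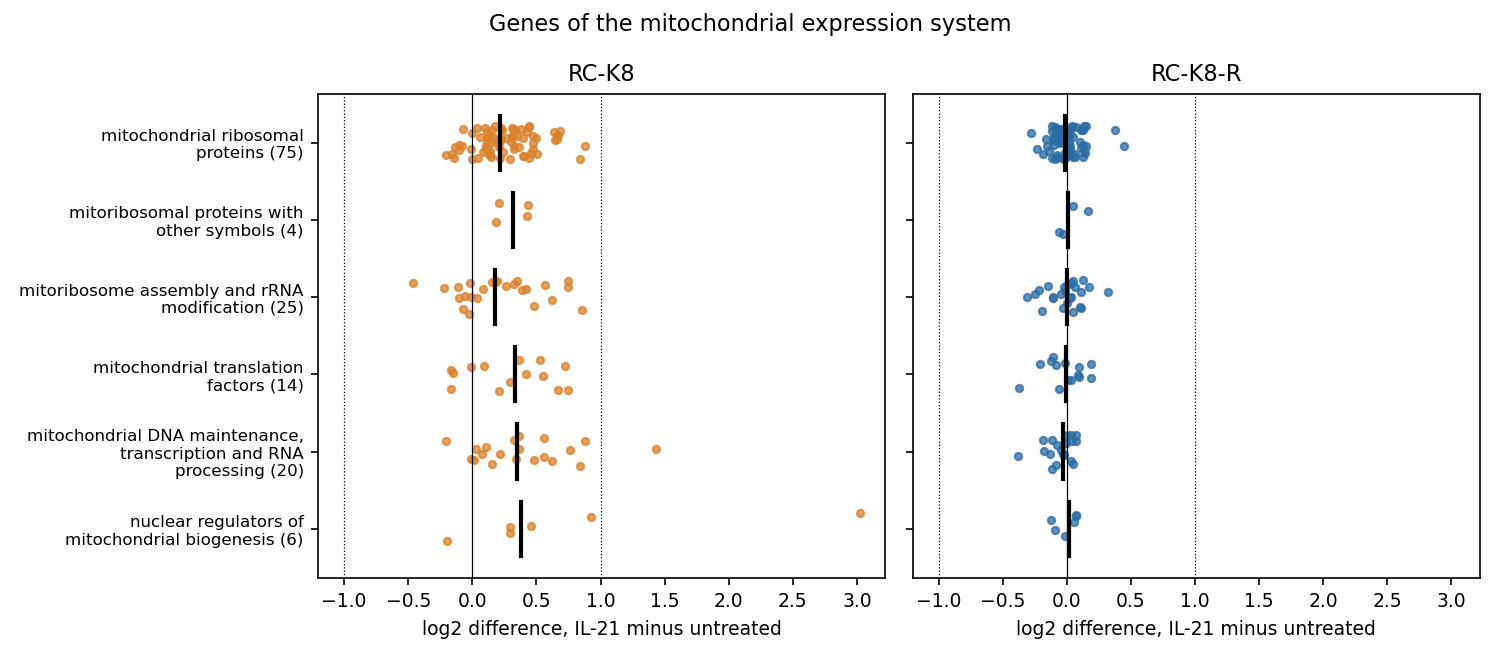
Log2 difference between the IL-21 and the untreated array (x axis) in RC-K8 (left, orange) and RC-K8-R (right, blue) for each measured gene of 6 lists (y axis, number of genes in brackets). Each point is a gene, thick bars are list medians and dotted lines mark 2-fold. The medians lie between 0.18 and 0.38 for RC-K8, and between -0.03 and 0.02 in RC-K8-R, and MYC and TWNK are the points past 2-fold.

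The cytosolic ribosomal protein genes and the respiratory chain genes had smaller medians in RC-K8 than the MRP genes (0.22). Medians were larger for mitoribosomal proteins with other names (0.32), translation factors (0.33), the DNA maintenance list (0.35) and regulators (0.38). The assembly factors had 0.18. The 75 cytosolic ribosomal protein genes had a median of 0.08, with 67 (89.3%) above 0 and none at 1.5-fold. The share above 0 was 86.7% for the MRP genes and 45.1% for all genes. The 76 nuclear genes of respiratory chain and ATP synthase subunits had a median of 0.06, with 51 (67.1%) above 0. Between the untreated lines, 73 of the 75 cytosolic ribosomal protein genes were above 0, against 53.4% of all genes. Their median was 0.34 in favour of RC-K8-R, where the MRP genes had 0.08. With IL-21 these medians were 0.24 and -0.20. The differences between families were not tested.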

How the data were processed

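2-colour arrays (Cy5 sample, Cy3 human reference RNA, per the labels) of 4 samples were analysed, 1 per group. The deposited table holds 1 log ratio per probe and array, read as log2, with values from -10.4 to 7.94. Log base, centring, scanner, background correction and normalization are steps the sources used here do not give. The table held 31095 probes, of which 25570 had 1 gene symbol in the platform annotation, 28 several and 5497 none.

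From each array the median of the 23260 probes measured on every array was subtracted. Probe differences were summarised per gene by the median, as were levels, so that for genes with several probes a difference need not equal the difference of the levels. This gave 13446 genes, 9067 of them from 1 probe. No test was possible, and counts use fold thresholds of 1.5 and 2. Signed differences are treated minus untreated and RC-K8-R minus RC-K8. The number of arrays limits the precision. Genes were named by rank (the 10 highest and 8 lowest in RC-K8 with IL-21, the 5 highest and 5 lowest otherwise), by 2-fold calls, by probes of opposite sign and, for the stalk, decoding site and subunit exceptions, by function. In the other lists, the named genes were those at 2-fold and the highest and lowest in RC-K8. A few more, and the MRPS23 promoter, were chosen after values were seen. Members and lists were chosen with earlier results of these data known. The subunit and class of each protein come from general knowledge of mitoribosome structures. Alternatives were centring, scaling, loess (span 0.3, 3 iterations), probe summary, genes kept, thresholds and membership. Scripts ran in Python 3.11.15 with pandas 2.3.3 and were tested on simulated data. Protein sequences were not used here.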

Additional observations from a re-analysis of the deposited data

Results flagged for a closer look

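A pair of members had responses of opposite direction in the lines, each larger than the median SD between probes over all genes. Those SDs, 0.16 for RC-K8 and 0.12 for RC-K8-R, come from other genes, which have several probes. Over all genes, 21.6% were above 0 in RC-K8 and below 0 in RC-K8-R at any size. The share of all genes that met the same rule is not given. For MRPS17 the log2 difference with IL-21 was 0.44 for RC-K8 but -0.28 for RC-K8-R, a difference of responses of -0.72. For MRPS30 it was 0.46 for RC-K8 but -0.19 for RC-K8-R, a difference of -0.65. Each rests on 1 probe and 1 array per group, and the difference between the lines was not tested.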

How the results depend on the processing

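Over the alternatives listed under the processing and 1 added after seeing the data (the antisense RNA and the pseudogene included), the median of the MRP genes stayed between 0.19 and 0.25 for IL-21 in RC-K8, between -0.29 and -0.23 for the difference of responses, between 0.03 and 0.18 for the untreated lines and between -0.21 and -0.15 for the lines with IL-21. For IL-21 in RC-K8-R it lay between -0.02 and 0.02, so no direction is read. For the untreated lines, the value of 0.18 came from 11 genes whose 2 or more probes shared a direction. All genes kept by that rule had a median of 0.30. With every probe as its own feature the medians were 0.075 for MRP probes and 0.087 for all probes. No direction relative to all genes is therefore read between the untreated lines. Small minus large subunit ran from -0.10 to -0.06 in RC-K8 and never exceeded 0.15 in size in any comparison. The counts at 2-fold were 0 in each comparison except for 1 in the lines with IL-21. At 1.5-fold they were 7 for IL-21 in RC-K8, 2 for the untreated lines, 6 for the lines with IL-21 and 9 for the difference of responses. With IL-21 the line count was 2 under quantile normalization and after loess, and 0 at 3-fold and among the 16 genes whose 2 or more probes shared a direction. The difference of responses had 1 at 2-fold under quantile normalization and under equal median absolute deviation. The cause was not tested. For single genes and the other lists, 23 values moved by at least the median SD between probes, 9 of them with a change of sign, and 1573 moved by less, 40 of them with a change of sign from a value near 0. When the probe of highest mean stood for the gene, MRPL10 was at 0.10 in RC-K8 and MRPL43 at 0.46 between the untreated lines. No paired analysis was possible because each group has 1 array and no replicate number. With 1 array per group, no spread between cultures is known.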

Other observations

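MRPL20-AS1, an RNA antisense to MRPL20, had levels of -0.22 untreated and 0.09 with IL-21 in RC-K8 and of 0.46 and 0.51 in RC-K8-R, on 1 probe. It was higher on both RC-K8-R arrays, by 0.69 untreated and 0.42 with IL-21, whereas MRPL20 was at -0.04 and -0.32 there. The pseudogene MRPL42P5 had levels of -0.20 and 0.33 in RC-K8 and of 0.80 and 0.63 in RC-K8-R. Its line difference was just under 2-fold untreated and 0.30 with IL-21, against 0.12 and -0.44 for MRPL42. MRPL16 had levels of 0.09 and 0.14 in RC-K8 and 0.20 in treated RC-K8-R. MRPL39 had 0.67 and 0.59 in RC-K8 and 0.62 in treated RC-K8-R. A further probe of MRPS11, blank on treated RC-K8, was at 0.44 in untreated RC-K8 and at 0.03 and -0.24 in RC-K8-R, the opposite direction between the untreated lines to the gene's other probes.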
